A study of Homo sapiens with 6 samples.

Results

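The genes described here encode the proteins of the cytosolic ribosome. They were chosen by symbol, as protein-coding genes whose symbol starts with RPL (large 60S subunit) or RPS (small 40S subunit). RPLP0, RPLP1, RPLP2 and RPSA were included, and the RPS6K kinases, RPS19BP1, the Y-linked RPS4Y genes and read-through symbols with a hyphen were left out. This gave 85 genes of the 60658 identifiers in the files, 53 of the 60S and 32 of the 40S subunit. Among them 8 are paralogs of another member (RPL3L, RPL7L1, RPL10L, RPL22L1, RPL26L1, RPL36AL, RPL39L and RPS27L), and 77 are not. FAU and RACK1 also encode ribosomal proteins but fall outside the symbol rule, and are given as a comparison.

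The libraries come from C4-2B MDVR and CWR22Rv1, both established human prostate cancer lines, with 1 library for each of 6 conditions. C4-2B MDVR was derived from C4-2B by selection for resistance to enzalutamide and is kept in medium with 20 µM enzalutamide, a hormone-therapy drug for prostate cancer. CWR22Rv1 is a castration-resistant line and was kept without enzalutamide. Each line was cultured for 48 h with the vehicle DMSO or with apoptozole (APO) or VER155008 (VER), small-molecule inhibitors of the chaperone HSP70 that were each used at 10 µM. Because no condition was replicated, no difference below has a replicate error or a p-value, and the values describe these 6 libraries. In bulk RNA, fewer cells of a kind and less RNA per cell cannot be told apart.

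Ribosomal proteins are made in matched amounts and assembled with ribosomal RNA in the nucleolus. Most of their mRNAs begin with a terminal oligopyrimidine (TOP) tract, a C at the cap followed by an unbroken run of C and T, through which mTORC1 and LARP1 control their translation and stability. Several ribosomal proteins that are not built into ribosomes bind MDM2 and so stabilize p53. Paralogs can replace a ribosomal protein in some tissues, and HSP70 family chaperones work on the ribosome itself, where they fold nascent chains.

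Transcript starts were read from RefSeq promoter windows (GRCh38.p14), which were given for 68 of the 85 members. The 30 bases around the annotated start are shown for paralog and parent pairs and for some members that rose strongly, because most of the pairs shown differ in the TOP tract. Strong risers without the tract are not shown, such as RPL15 and RPL9 (log2 fold changes of 1.01 and 0.88 with APO in CWR22Rv1). Each window runs 5′ to 3′ on the strand of the gene, with 15 bases before the start and 15 from the start onward, and capitals mark the longest run of at least 5 bases of C and T that reaches within 5 bases of the start.
RPS27, chr1:153990747-153990776, plus strand: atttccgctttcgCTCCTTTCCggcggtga
RPS27L, chr15:63157463-63157492, minus strand: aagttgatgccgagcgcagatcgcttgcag
RPL22, chr1:6199581-6199610, minus strand: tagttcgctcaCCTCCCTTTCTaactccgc
RPL22L1, chr3:170870181-170870210, minus strand: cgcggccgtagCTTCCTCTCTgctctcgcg
RPL26, chr17:8383179-8383208, minus strand: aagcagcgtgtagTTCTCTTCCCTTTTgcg
RPL26L1, chr5:172958714-172958743, plus strand: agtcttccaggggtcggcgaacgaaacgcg
RPL10, chrX:154398362-154398391, plus strand: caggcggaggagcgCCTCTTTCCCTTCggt
RPL10L, chr14:46651767-46651796, minus strand: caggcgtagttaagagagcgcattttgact
RPL36A, chrX:101390996-101391025, plus strand: tttgcctcgcggTTTCTTTCTTTCCgcgcc
RPL36AL, chr14:49620612-49620641, minus strand: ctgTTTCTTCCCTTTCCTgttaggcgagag
RPL7L1, chr6:42879601-42879630, plus strand: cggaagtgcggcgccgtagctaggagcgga
RPS18, chr6:33272060-33272089, plus strand: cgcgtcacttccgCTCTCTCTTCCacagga
RPS6, chr9:19380222-19380251, minus strand: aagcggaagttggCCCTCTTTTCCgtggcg
RPS3A, chr4:151099613-151099642, plus strand: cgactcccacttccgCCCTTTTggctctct
RPL41, chr12:56116618-56116647, plus strand: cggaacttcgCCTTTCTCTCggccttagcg

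The tract was searched as a C at the annotated start followed by at least 4 bases that are C or T, on the strand of the gene only. It was found for 47 of the 68 members (69.1%), against 988 of 15843 protein-coding genes (6.24%), 1404 of all 27305 genes with a window (5.14%) and 6 of 69 mitochondrial ribosomal protein genes (8.70%). Of the members that are not paralogs, 46 of 62 (74.2%) held it. Of the 6 paralogs with a window, RPL22L1 was the 1 that held it. RPL36AL had a long C and T run that ended within the first bases of the transcript. The windows of RPS27L, RPL26L1, RPL10L and RPL7L1 showed no such run, while those of the parents RPS27, RPL26 and RPL10 did. Genes with several RefSeq starts counted once if any start held the tract. For RPL10 the window shown is the 1 of 3 that held it.

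Expression was given as FPKM, a fragment count corrected for the length of the transcript and for sequencing depth, scaled between libraries by Cuffnorm. The paper gives an approximate read number per sample, and the exact total of each library is unknown. From the steps between low FPKM values, the depth of the libraries relative to C4-2B MDVR DMSO lay between 1.14 and 1.63. The prostate and epithelial markers KLK3, HOXB13, TMPRSS2, KRT8, KRT18 and EPCAM were present in all 6 libraries, with HOXB13 between 24.4 and 98.2 FPKM. Of 8 markers of immune, stromal and endothelial cells, COL1A1 reached 10.7 FPKM, and the other 7 stayed below 1 FPKM in every library, with PECAM1 listed at 0 throughout.

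The members held a large part of the summed FPKM, and a larger part with either inhibitor. FPKM is corrected for transcript length, so this is not a share of RNA mass or of reads. In the C4-2B MDVR libraries they summed to 16.7% (DMSO), 21.3% (APO) and 18.9% (VER) of all FPKM. In CWR22Rv1 the shares were 12.6%, 21.3% and 15.5%. The order DMSO, VER, APO was thus the same in both lines, and CWR22Rv1 APO, from the lowest starting share, reached that of C4-2B MDVR APO.

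The transcripts of the mitochondrial chromosome moved as well. They took 15.5%, 14.8% and 16.4% of FPKM in C4-2B MDVR with DMSO, APO and VER. In CWR22Rv1 they took 25.7%, 10.4% and 25.7%, so the APO library of this line stood apart. Without mitochondrial transcripts, the members held 19.7%, 25.0% and 22.6% in C4-2B MDVR and 17.0%, 23.8% and 20.9% in CWR22Rv1, in the same order of conditions.

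**Figure D1:**
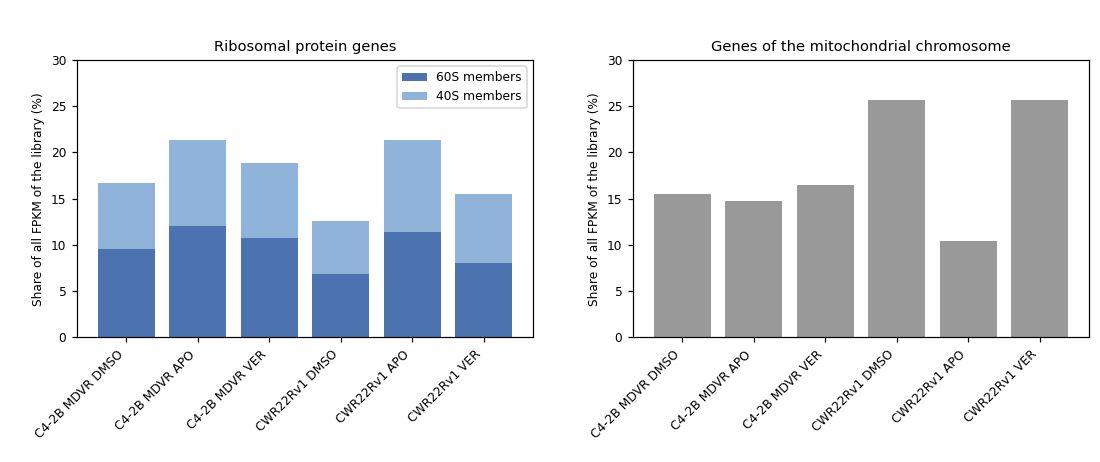
Share of all FPKM (%) in each of the 6 libraries, for the 60S and 40S members stacked on the left and for the genes of the mitochondrial chromosome on the right, with 1 library per bar and no error bar. The members' share is lowest with DMSO and highest with APO in both lines, from 16.7% to 21.3% in C4-2B MDVR and from 12.6% to 21.3% in CWR22Rv1, and the mitochondrial share is lowest, at 10.4%, in CWR22Rv1 APO.

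Single members covered a wide range of levels. Between 63 and 70 of the 100 highest nuclear genes of a library were members. RPS27 had the highest mean level over the 6 libraries (5508 FPKM), followed by RPL41 (4384 FPKM) and RPS18 (4380 FPKM). RPS27, a zinc-finger protein of the 40S subunit, was the top member in every library. It stood at 4228, 6412 and 5683 FPKM in C4-2B MDVR with DMSO, APO and VER, and at 3924, 6671 and 6130 FPKM in CWR22Rv1. The lowest mean levels above 1 FPKM were those of the paralogs RPL10L (12.2), RPL39L (25.8) and RPL7L1 (52.8). The muscle paralog RPL3L was listed between 0 and 0.031 FPKM, while RPL3 lay between 846 and 2083 FPKM. Per FPKM summed over genes, the 60S to 40S ratio was 1.35, 1.29 and 1.32 in C4-2B MDVR and 1.18, 1.14 and 1.09 in CWR22Rv1 with DMSO, APO and VER. It was below 1.2 in the 3 CWR22Rv1 libraries and near 1.3 in the 3 C4-2B MDVR libraries.

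A change was counted when a gene passed 1.2-fold in FPKM against DMSO of the same line, on the log2(FPKM + 0.1) scale, on which 1.2-fold is 0.26, and the words rose and fell are used in that sense. The 83 members with more than 0.1 FPKM in at least 1 library of the line were compared. The genes left out were RPL3L and RPL39L in C4-2B MDVR and RPL3L and RPL10L in CWR22Rv1.

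With APO, nearly all members rose in both lines. In C4-2B MDVR 73 of 83 rose and 1 fell, with a median log2 fold change of 0.46, against 37.7% of all 20122 genes compared that rose and 35.4% that fell, with a median of 0. In CWR22Rv1 73 of 83 again rose and 1 fell, with a median of 0.60, against 35.6% of all 21608 genes that rose and 39.2% that fell. In both lines the gene that fell was RPL7L1. Of the 82 members compared in both lines 68 rose with APO in both, against 21.3% of the 18059 genes compared in both lines. The rises were small. At 1.5-fold 20 of 83 members rose in C4-2B MDVR, against 25.2% of all genes, and 44 of 83 in CWR22Rv1, against 23.8%.

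Changes with VER were smaller. In C4-2B MDVR 16 members rose and 2 fell, with a median of 0.15. There 35.6% of all genes rose and 34.9% fell, so the share of members that rose, 19.3%, was below that of all genes, although 72 of the 83 members were at least slightly above DMSO. In CWR22Rv1 41 members rose and 2 fell, with a median of 0.25, against 32.1% of all genes up and 32.3% down. The 2 genes that fell with VER were RPL22L1 and RPL7L1 in both lines.

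**Figure D2:**
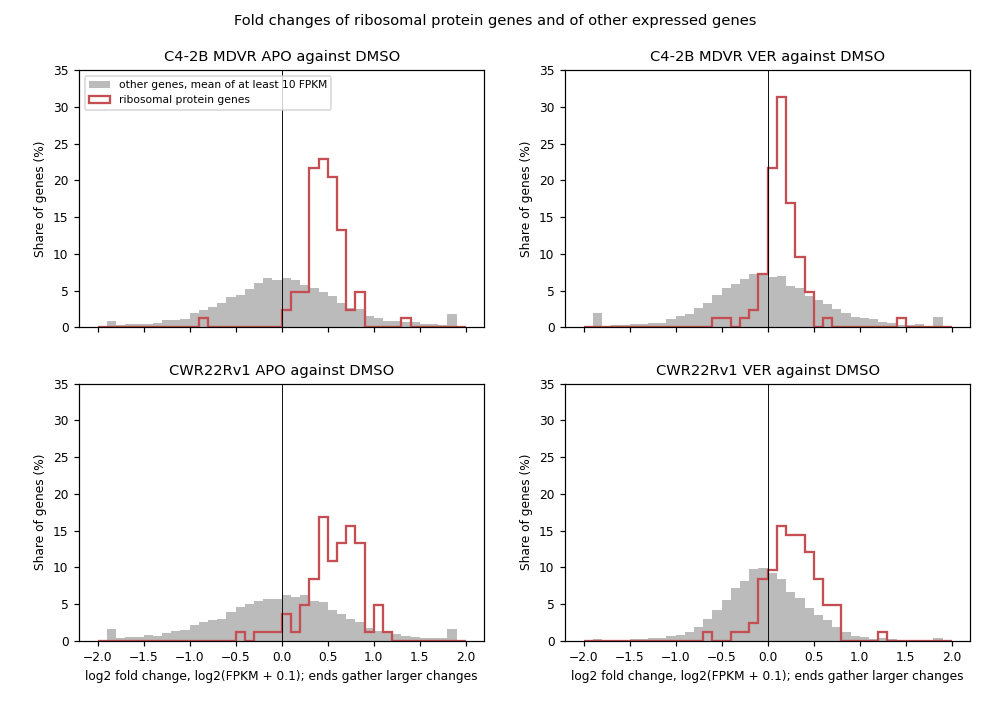
Distribution of log2 fold changes against DMSO (share of genes, %) for the ribosomal protein genes (red outline) and for the other genes that averaged 10 FPKM or more in the 3 libraries of the line (grey), in 4 panels of 1 library against 1 library. The red outlines are narrower than the grey ones and lie to the right of 0, with medians of 0.46 (C4-2B MDVR APO), 0.15 (C4-2B MDVR VER), 0.60 (CWR22Rv1 APO) and 0.25 (CWR22Rv1 VER).

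Highly expressed genes as a whole were not shifted as far. Among all genes that averaged 10 FPKM or more, the median log2 fold change was 0.02 and −0.02 for APO and VER in C4-2B MDVR and 0.03 and −0.03 in CWR22Rv1, and 34.3%, 30.8%, 35.6% and 24.9% of them rose. Other nuclear genes that averaged 300 FPKM or more, a class added after the data were seen, are nearer in level to the members. With APO their median was 0.27 in C4-2B MDVR, where 82 of 161 rose, and −0.02 in CWR22Rv1, where 56 of 153 rose. With VER it was 0.07 (63 of 161 rose) and 0.12 (60 of 153 rose). The median of the members stood above that of the genes over 10 FPKM in each contrast. The difference was 0.44 and 0.17 for APO and VER in C4-2B MDVR and 0.57 and 0.28 in CWR22Rv1. Each scaling tried multiplies a whole library by a constant factor, so this difference was bound to stay nearly the same. The scalings are therefore no test of it. The absolute size of the members' fold changes depended on the scaling. When each library was scaled to the same sum (TPM), 52 members rose with APO in C4-2B MDVR in place of 73, with a median of 0.31, against 32.1% of all genes up and 42.3% down on that scale. In CWR22Rv1 76 rose, with a median of 0.71, against 40.3% of all genes up and 35.5% down. When mitochondrial transcripts were also left out of that sum, the members that rose with APO numbered 49 in C4-2B MDVR (median 0.30) and 62 in CWR22Rv1 (median 0.45), against 31.7% and 30.3% of all genes up and 42.9% and 45.3% down. The part of the mitochondrial share in the CWR22Rv1 APO values beyond this rescaling was not tested.

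**Figure D3:**
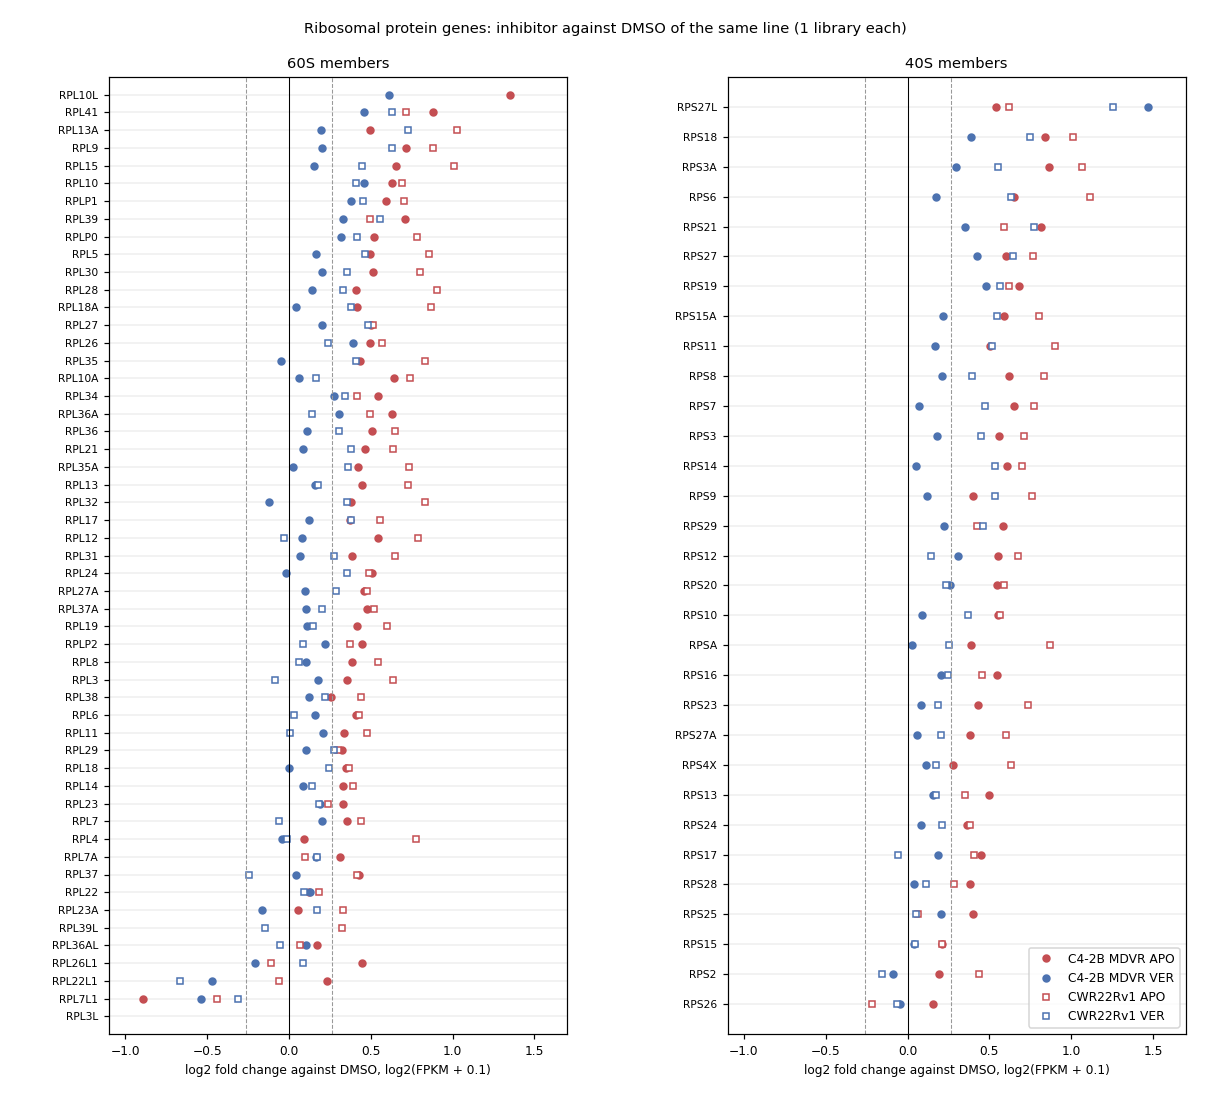
log2 fold change against DMSO, on the log2(FPKM + 0.1) scale, of the 60S members (left) and 40S members (right), without a gene that is not reported here, ordered by its mean over the 4 contrasts, with 1 point per contrast and no replicates (red for APO, blue for VER, filled circles for C4-2B MDVR, open squares for CWR22Rv1). Dashed lines mark 1.2-fold. Most red points lie to the right of the upper dashed line, RPL7L1 lies left of the lower line in all 4 contrasts, and RPS27L is the gene with the largest VER values, 1.47 and 1.25.

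With APO 44 of 51 compared 60S members and 29 of 32 40S members rose in each line. With VER 9 of 51 and 7 of 32 rose in C4-2B MDVR and 24 of 51 and 17 of 32 in CWR22Rv1. The shares of all genes that rose in C4-2B MDVR and CWR22Rv1 were 37.7% and 35.6% with APO and 35.6% and 32.1% with VER. With VER in C4-2B MDVR the shares of 60S and 40S members that rose, 17.6% and 21.9%, were thus below that of all genes. The members that fell were all of the 60S set. The median log2 fold changes of 60S and 40S members were 0.43 and 0.55 for APO in C4-2B MDVR and 0.55 and 0.63 for APO in CWR22Rv1. For VER they were 0.12 and 0.18 in C4-2B MDVR and 0.24 and 0.38 in CWR22Rv1. The 40S median was the higher one in all 4 contrasts.

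Of the 60S parts, the P-stalk proteins RPLP0, RPLP1 and RPLP2, which recruit and activate the GTPase factors of translation, rose in 3, 2, 3 and 2 of 3 cases in C4-2B MDVR APO, C4-2B MDVR VER, CWR22Rv1 APO and CWR22Rv1 VER. Of all genes 37.7%, 35.6%, 35.6% and 32.1% rose in these contrasts. RPLP0 stood at 1862, 2670 and 2321 FPKM in C4-2B MDVR with DMSO, APO and VER and at 1747, 3008 and 2327 FPKM in CWR22Rv1. RPLP1 stood at 849.5, 1280 and 1103 FPKM in C4-2B MDVR and at 706, 1151 and 967 FPKM in CWR22Rv1. Both rose in all 4 contrasts, with APO the highest library of each line. RPLP2 rose with APO only, with VER values of 0.22 and 0.09 on the log2 scale.

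RPL5 and RPL11, which form the 5S ribonucleoprotein with 5S rRNA, both rose with APO in both lines. RPL5 was at 793, 1118 and 888 FPKM in C4-2B MDVR with DMSO, APO and VER and at 748, 1353 and 1033 FPKM in CWR22Rv1. RPL11 was at 775, 977 and 896 FPKM in C4-2B MDVR and at 732, 1017 and 736 FPKM in CWR22Rv1. Of the pair, RPL5 rose with VER in CWR22Rv1 (0.47), where RPL11 was at its DMSO level (0.01).

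Of 9 proteins at or near the exit of the nascent chain tunnel (RPL4, RPL17, RPL19, RPL22, RPL23A, RPL26, RPL31, RPL35 and RPL39), 6, 2, 8 and 4 rose in the contrasts in the same order and 0 fell. Of all genes 37.7%, 35.6%, 35.6% and 32.1% rose. With VER in C4-2B MDVR the share of these proteins that rose, 22.2%, was below that of all genes. RPL39, a short protein of the tunnel wall, was at 2706, 4416 and 3408 FPKM in C4-2B MDVR and at 1777, 2502 and 2617 FPKM in CWR22Rv1. It rose in all 4 contrasts. RPL4, which lines the tunnel, was at 1626, 1736 and 1577 FPKM in C4-2B MDVR and at 1047, 1798 and 1038 FPKM in CWR22Rv1, so that its log2 fold change with APO was 0.09 in the first line and 0.78 in the second. RPL23A, a docking site for factors at the exit, was at 862, 897 and 767 FPKM in C4-2B MDVR and at 682, 859 and 769 FPKM in CWR22Rv1. Its processed pseudogenes held between 17.2% and 22.6% of its own FPKM, the largest such share among the members, so its values carry more uncertainty in read assignment. Over all members, 1144 pseudogenes held less than 0.7% of the members' FPKM in every library, and RPL10 and RPL21 were the other members with a share over 5%.

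In the 40S subunit, RPS26, which contacts the mRNA upstream of the start codon, was among the members that did not rise in any contrast. It was at 708, 787 and 687 FPKM in C4-2B MDVR and at 634, 545 and 606 FPKM in CWR22Rv1, with APO the highest library of the first line and the lowest of the second.

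A list of 9 members known to bind MDM2 held RPL5, RPL11, RPL23, RPL26, RPS3, RPS7, RPS14, RPS27 and RPS27L. Of them 9, 3, 8 and 6 rose and 0 fell, beside 37.7%, 35.6%, 35.6% and 32.1% of all genes that rose. With VER in C4-2B MDVR their share that rose, 33.3%, was thus not above that of all genes. The exception with APO in CWR22Rv1 was RPL23, at 875, 1031 and 994 FPKM with DMSO, APO and VER. RPS7 was at 816, 1282 and 857 FPKM in C4-2B MDVR and at 771, 1320 and 1070 FPKM in CWR22Rv1.

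The largest rises with APO among members with a mean of at least 10 FPKM were those of RPL10L (1.35), RPL41 (0.88) and RPS3A (0.87) in C4-2B MDVR. In CWR22Rv1 they were those of RPS6 (1.11), RPS3A (1.07) and RPL13A (1.03). RPS3A was at 973, 1772 and 1193 FPKM in C4-2B MDVR with DMSO, APO and VER and at 1573, 3294 and 2303 FPKM in CWR22Rv1. RPS6, the 40S protein phosphorylated by the S6 kinases, was at 1140, 1792 and 1285 FPKM in C4-2B MDVR and at 664, 1435 and 1029 FPKM in CWR22Rv1. RPL41, the shortest ribosomal protein, was at 2879, 5292 and 3964 FPKM in C4-2B MDVR and at 3382, 5564 and 5222 FPKM in CWR22Rv1. In each of these 3 genes the DMSO library was the lowest and the APO library the highest of its line. The lowest APO values after RPL7L1 were those of RPL23A (0.06) and RPL4 (0.09) in C4-2B MDVR and of RPS26 (−0.22) and RPL26L1 (−0.11) in CWR22Rv1.

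With VER the largest values in C4-2B MDVR were those of RPS27L (1.47), RPL10L (0.61) and RPS19 (0.48), and in CWR22Rv1 those of RPS27L (1.25), RPS21 (0.77) and RPS18 (0.75). RPS19, the gene most often mutated in Diamond-Blackfan anaemia, was at 1020, 1637 and 1418 FPKM in C4-2B MDVR and at 1535, 2357 and 2273 FPKM in CWR22Rv1. RPS18 was at 3250, 5808 and 4246 FPKM in C4-2B MDVR and at 2764, 5575 and 4635 FPKM in CWR22Rv1. RPS21 was at 2270, 3992 and 2892 FPKM in C4-2B MDVR and at 2404, 3613 and 4111 FPKM in CWR22Rv1, where VER was the highest library. The lowest VER values were those of RPL7L1 (−0.54), RPL22L1 (−0.47) and RPL26L1 (−0.21) in C4-2B MDVR, and of RPL22L1 (−0.67), RPL7L1 (−0.31) and RPL37 (−0.24) in CWR22Rv1.

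In all 4 contrasts 12 of the 82 members compared in both lines rose, against 9.59% of all genes compared in both: RPL10, RPL34, RPL39, RPL41, RPLP0, RPLP1, RPS3A, RPS18, RPS19, RPS21, RPS27 and RPS27L. The APO and VER contrasts of a line share its DMSO library, so these are not 4 independent observations. RPL10, which completes the 60S subunit in the cytoplasm, was at 1806, 2796 and 2486 FPKM in C4-2B MDVR and at 1358, 2188 and 1803 FPKM in CWR22Rv1. RPL34 was at 942.5, 1377 and 1141 FPKM in C4-2B MDVR and at 884, 1181 and 1123 FPKM in CWR22Rv1.

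APO and VER were given at the same dose and time, so their libraries could be set against each other within a line. FPKM was lower with VER than with APO for 80 members in C4-2B MDVR and for 75 in CWR22Rv1. By 1.2-fold, 55 members were lower and 2 higher with VER in C4-2B MDVR, with a median log2 difference of −0.32, against 32.5% of all genes lower and 28.5% higher. In CWR22Rv1 44 were lower and 1 higher, with a median of −0.29, against 34.5% of all genes lower and 37.3% higher. A lower level with VER than with APO was not particular to the members. Of the 78 mitochondrial ribosomal protein genes, 32 were lower and 1 higher in C4-2B MDVR (median −0.22). In CWR22Rv1 32 of these genes were lower and 5 higher (median −0.20). The order DMSO below VER below APO held for 70 members in C4-2B MDVR and 65 in CWR22Rv1. The members' difference between VER and APO was smaller on the same-sum scale in C4-2B MDVR, where 20 members were lower and the median was −0.17. It was larger on that scale in CWR22Rv1, where 69 were lower and the median was −0.47. On the same-sum scale 37.4% of all genes in C4-2B MDVR were higher with VER and 24.9% lower, and 31.3% and 43.1% in CWR22Rv1, where the median of all genes was −0.13. RPS27L was higher with VER by 1.2-fold in both lines, and RPL7L1 in C4-2B MDVR.

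The members that fell with an inhibitor were both paralogs. Of the 77 members that are not paralogs, 70, 14, 71 and 40 rose and 0 fell in C4-2B MDVR APO, C4-2B MDVR VER, CWR22Rv1 APO and CWR22Rv1 VER. Of the 6 paralogs compared in each line, 3, 2, 2 and 1 rose and 1, 2, 1 and 2 fell. The shares of all genes were 37.7%, 35.6%, 35.6% and 32.1% up and 35.4%, 34.9%, 39.2% and 32.3% down. The share of paralogs that fell, 16.7%, 33.3%, 16.7% and 33.3%, was thus near or below that of all genes.

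RPS27L (chr15:63125872-63158021, minus strand, GRCh38 in GENCODE 29) is a paralog of RPS27 and a known p53 target. Its level in C4-2B MDVR was 80.1 FPKM (DMSO), 117 FPKM (APO) and 222 FPKM (VER). In CWR22Rv1 it was at 73.9, 114 and 176 FPKM. VER was the highest and DMSO the lowest library in both lines, whereas RPS27 was highest with APO in both lines. The log2 fold changes of RPS27L in C4-2B MDVR were 0.54 (APO) and 1.47 (VER), those in CWR22Rv1 were 0.62 and 1.25, and those of RPS27 were 0.60, 0.43, 0.77 and 0.64 in the same order. RPS27L made up 1.86%, 1.79% and 3.75% of the pair's FPKM in C4-2B MDVR and 1.85%, 1.68% and 2.80% in CWR22Rv1, so its share was highest with VER and lowest with APO in both lines. The coding sequences are 77.8% identical, and the longest identical stretch is 20 bases. At the start shown above RPS27L lacks the TOP tract that RPS27 has.

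RPL22L1 (chr3:170864875-170870483, minus strand) is a paralog of RPL22, whose protein is known to repress RPL22L1. It was at 677, 794 and 490 FPKM in C4-2B MDVR with DMSO, APO and VER and at 203, 195 and 128 FPKM in CWR22Rv1. All C4-2B MDVR libraries were above all CWR22Rv1 libraries, and VER was the lowest library of each line. RPL22 itself was nearly level across the 6 libraries, at 159, 173 and 174 FPKM in C4-2B MDVR and at 159, 180 and 169 FPKM in CWR22Rv1, and rose in no contrast. RPL22L1 therefore made up 81.0%, 82.1% and 73.8% of the pair in C4-2B MDVR and 56.2%, 51.9% and 43.1% in CWR22Rv1. It was the 1 paralog that exceeded its parent, in every library but CWR22Rv1 VER. Unlike the other paralogs with a window, RPL22L1 has the TOP tract, and so does RPL22. Neither gene rose with APO.

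RPL7L1 (chr6:42879618-42889925, plus strand), a nucleolar protein related to RPL7, fell in all 4 contrasts. It was at 80.3, 43.2 and 55.2 FPKM in C4-2B MDVR with DMSO, APO and VER and at 54.4, 40.04 and 43.8 FPKM in CWR22Rv1, with DMSO the highest and APO the lowest library of each line. RPL7 was at 1734, 2217 and 1992 FPKM in C4-2B MDVR and at 930, 1263 and 892 FPKM in CWR22Rv1, with APO the highest library. The coding sequences of the pair are 54.4% identical, the lowest value of the 8 pairs.

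RPL39L (chr3:187120948-187180908, minus strand) and RPL10L (chr14:46651010-46651821, minus strand), both known from the testis, were each present in 1 line. RPL39L was listed at 0 in the 3 C4-2B MDVR libraries and was at 49.0, 61.4 and 44.3 FPKM in CWR22Rv1 with DMSO, APO and VER. RPL39 lay between 1777 and 4416 FPKM in all 6 libraries. RPL10L was at 14.4, 36.9 and 22.1 FPKM in C4-2B MDVR and was listed at 0 in the 3 CWR22Rv1 libraries, where RPL10 was at 1358 to 2188 FPKM. Coding identity to the parent is 94.8% for RPL39L, with a longest identical stretch of 44 bases, and 89.3% for RPL10L, with 50 bases. A fragment within such a stretch could be counted for either gene, and the part of this in the RPL10L and RPL39L values was not tested.

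RPL26L1 (chr5:172958729-172969771, plus strand) was at 62.9, 85.7 and 54.3 FPKM in C4-2B MDVR and at 41.5, 38.5 and 44.2 FPKM in CWR22Rv1, against 1946, 2744 and 2551 FPKM and 981, 1454 and 1156 FPKM for RPL26. It rose with APO in C4-2B MDVR (0.45) and in no other contrast, while RPL26 rose in each contrast but CWR22Rv1 VER. RPL36AL (chr14:49618519-49620685, minus strand) was at 286, 322 and 307 FPKM in C4-2B MDVR and at 132, 138 and 128 FPKM in CWR22Rv1, and rose in no contrast. RPL36A was at 1701, 2631 and 2106 FPKM and at 1137, 1599 and 1256 FPKM. The share of RPL36AL in its pair was thus highest with DMSO in each line, at 14.4% and 10.4%, and lowest with APO, at 10.9% and 7.96%.

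**Figure D4:**
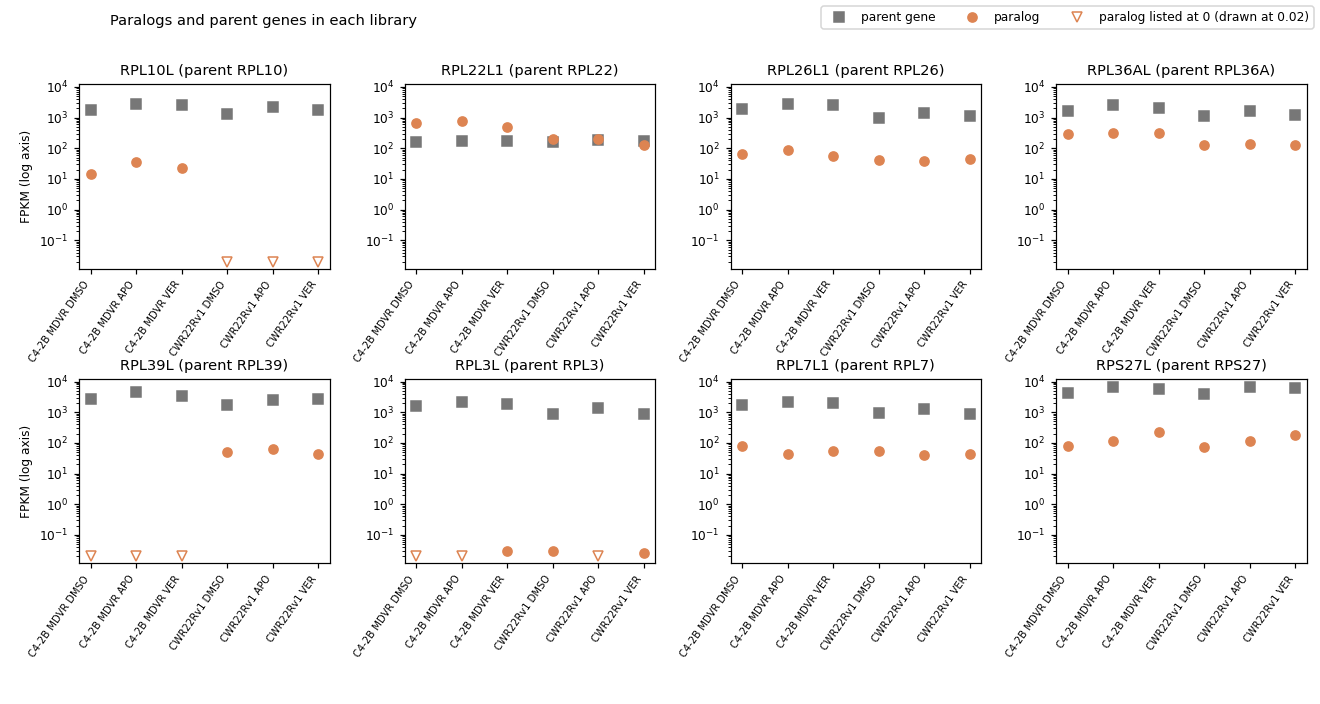
FPKM on a log axis in each of the 6 libraries for the 8 paralogs (orange) and their parent genes (grey), with 1 point per library. Open triangles are paralogs listed at 0, drawn at 0.02. RPL22L1 lies above RPL22 except in CWR22Rv1 VER, RPL39L is listed at 0 in C4-2B MDVR and RPL10L in CWR22Rv1, and the other paralogs lie below their parents throughout.

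The members that are not paralogs were also split by the TOP tract. With APO in C4-2B MDVR, 44 of the 46 with the tract rose (median log2 fold change 0.49) and 13 of the 16 without it (0.39). With APO in CWR22Rv1 these were 43 of 46 (0.63) and 14 of 16 (0.61). With VER in C4-2B MDVR 14 of 46 and 0 of 16 rose, with medians of 0.16 and 0.11, and in CWR22Rv1 26 of 46 and 7 of 16, with medians of 0.30 and 0.17. Of all genes 37.7% and 35.6% rose with APO in C4-2B MDVR and CWR22Rv1, and 35.6% and 32.1% with VER. The median was slightly higher with the tract in each contrast. Of the 15 members without a given window 0 rose with VER in C4-2B MDVR, and their medians were 0.45, 0.18, 0.59 and 0.23 for APO and VER in C4-2B MDVR and for APO and VER in CWR22Rv1. No test of the difference was made.

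Other mRNAs known to carry TOP tracts, a list of 18, rose more often than they fell in each contrast. The list held translation factors, RNA-binding proteins and others such as TPT1, NAP1L1 and RACK1. Of these mRNAs 9, 7, 12 and 9 rose and 1, 2, 2 and 1 fell. The order is C4-2B MDVR APO, C4-2B MDVR VER, CWR22Rv1 APO and CWR22Rv1 VER. Of all genes 37.7%, 35.6%, 35.6% and 32.1% rose and 35.4%, 34.9%, 39.2% and 32.3% fell. The medians of the list were 0.26, 0.18, 0.55 and 0.27. EEF1A1, the elongation factor that brings aminoacyl-tRNA, was at 2736, 4492 and 3726 FPKM in C4-2B MDVR and at 2609, 5058 and 3622 FPKM in CWR22Rv1, and rose in all 4 contrasts. NPM1, a nucleolar chaperone of ribosome assembly, was at 748, 708 and 521 FPKM in C4-2B MDVR and at 552, 745 and 484 FPKM in CWR22Rv1, and fell with VER in C4-2B MDVR (−0.52). FAU and RACK1 both rose with APO in both lines. FAU, whose product carries the 40S protein eS30, was at 445, 699 and 587 FPKM in C4-2B MDVR and at 515, 634 and 647 FPKM in CWR22Rv1 and rose in all 4 contrasts.

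The 78 nuclear genes of mitochondrial ribosomal proteins, which form a separate ribosome, had a lower median than the cytosolic set in each inhibitor contrast. Their median was above DMSO only with APO in CWR22Rv1. With APO 11 rose and 25 fell in C4-2B MDVR (median −0.08), and 31 rose and 12 fell in CWR22Rv1 (median 0.13). Of all genes 37.7% rose and 35.4% fell with APO in C4-2B MDVR, and 35.6% and 39.2% in CWR22Rv1. With VER 2 rose and 47 fell in C4-2B MDVR (median −0.33), and 5 rose and 23 fell in CWR22Rv1 (median −0.13). Of all genes 35.6% rose and 34.9% fell with VER in C4-2B MDVR, and 32.1% and 32.3% in CWR22Rv1. The share of the 78 genes that fell with VER was 60.3% in C4-2B MDVR and 29.5% in CWR22Rv1.

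Of 10 regulators of TOP mRNAs (MTOR, RPTOR, LARP1, LARP4, EIF4E, EIF4EBP1, EIF4EBP2, RPS6KA1, RPS6KB1 and RPS6KB2), 1, 1, 2 and 1 rose and 6, 4, 5 and 4 fell. Beside them, 37.7%, 35.6%, 35.6% and 32.1% of all genes rose and 35.4%, 34.9%, 39.2% and 32.3% fell. The gene that rose in every contrast was EIF4EBP1, a translational repressor that mTORC1 switches off, at 95.5, 231 and 204 FPKM in C4-2B MDVR and at 65.4, 225 and 102 FPKM in CWR22Rv1. LARP1, which binds the tract, was at 85.2, 54.4 and 71.3 FPKM in C4-2B MDVR and at 64.8, 58.4 and 66.6 FPKM in CWR22Rv1, and fell with APO in C4-2B MDVR (−0.65).

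Of 7 chaperones dedicated to single ribosomal proteins or to assembly, 0, 2, 0 and 0 rose and 3, 3, 1 and 3 fell. The shares of all genes were 37.7%, 35.6%, 35.6% and 32.1% up and 35.4%, 34.9%, 39.2% and 32.3% down. GRWD1, the chaperone of RPL3, fell in all 4 contrasts, from 23.7 FPKM (DMSO) to 8.54 (APO) and 12.9 FPKM (VER) in C4-2B MDVR and from 19.2 to 13.2 and 11.4 FPKM in CWR22Rv1. RPL3 rose with APO in both lines. Of 5 chaperones that act on nascent chains at the ribosome (HSPA8, HSPA14, DNAJC2, NACA and BTF3), 1, 0, 4 and 1 rose and 1, 3, 1 and 0 fell, beside the same shares of all genes. HSPA8, the constitutive HSP70, was at 1332, 1399 and 719 FPKM in C4-2B MDVR and at 713, 545 and 1210 FPKM in CWR22Rv1, so VER was its lowest library in the first line and its highest in the second.

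The DMSO libraries of the lines differed in their ribosomal protein mRNAs too. The line and the enzalutamide in the medium of C4-2B MDVR cannot be told apart in this comparison. Of 84 members compared, 49 were higher and 4 lower by 1.2-fold in C4-2B MDVR, with a median log2 difference of 0.38, against 39.2% of all 20903 genes higher and 43.2% lower. The median over all genes that averaged 10 FPKM or more was 0.12. Of 52 60S members 36 were higher and 1 lower, and of 32 40S members 13 were higher and 3 lower, with medians of 0.44 and 0.16. Mitochondrial ribosomal proteins had a median of 0.37. Without mitochondrial transcripts in the sum, 38 members were higher and 9 lower, with a median of 0.25, against 35.4% of all genes higher and 47.2% lower.

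RPL10L was at 14.4 FPKM in C4-2B MDVR DMSO and listed at 0 in CWR22Rv1 DMSO, so no fold is given. Among members above 0 in both, the largest differences upward were those of RPL22L1 (1.73), RPL35A (1.39) and RPL36AL (1.11). RPL35A, also a Diamond-Blackfan anaemia gene, was at 1711, 2288 and 1740 FPKM in C4-2B MDVR and at 653, 1088 and 838 FPKM in CWR22Rv1, with no overlap between the lines. The members lower in C4-2B MDVR were RPL39L, listed at 0 there, RPS3A (−0.69), RPS19 (−0.59) and RPS27A (−0.33). RPS27A, which encodes ubiquitin fused to a 40S protein, was at 400 FPKM in C4-2B MDVR DMSO and 504 FPKM in CWR22Rv1 DMSO. By chromosome, the 9 members on chromosome 3 had a median of 0.81, beside 0.46 for the other genes on it with a mean of at least 10 FPKM, and the 6 on chromosome 17 had 0.70 beside 0.46. The 12 members on chromosome 19 had 0.10 beside −0.16. On chromosome 1 the 5 members had 0.08 beside 0.23 and on chromosome 2 the 4 members 0.06 beside 0.14, the 2 of 13 chromosomes with at least 4 members where the members were below the other genes.

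**Figure D5:**
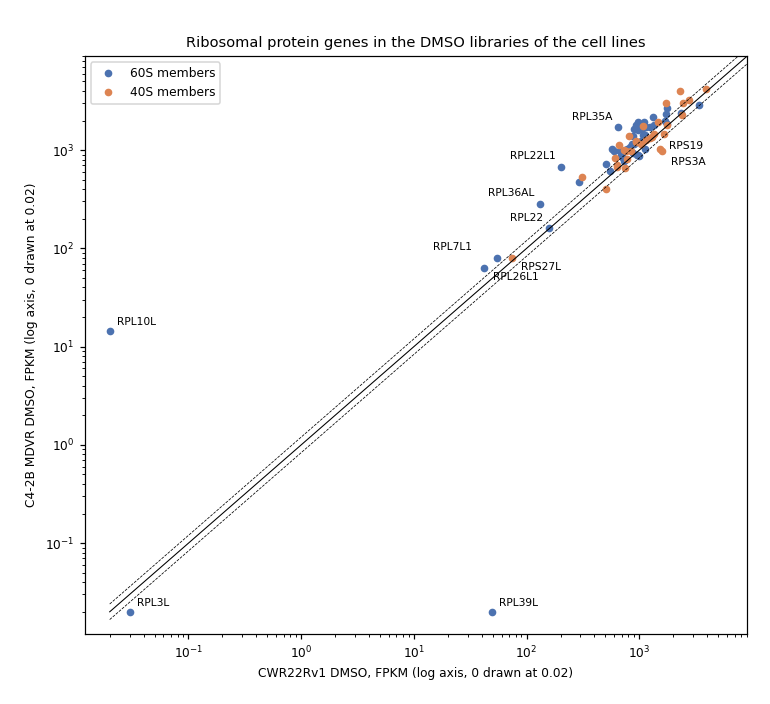
FPKM of the 85 members in the DMSO library of CWR22Rv1 (x) and of C4-2B MDVR (y), both on log axes with 0 drawn at 0.02, 1 library each, blue for 60S and orange for 40S members. The solid line marks equal values and the dashed lines 1.2-fold. RPL22L1, RPL35A and RPL36AL lie above the line, RPS3A and RPS19 below it, and RPL10L and RPL39L at the edge of 1 line each.

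Despite these differences, the ranking of members by level was similar between the lines. Across the 85 genes, Spearman's rho was 0.87 between the DMSO libraries, 0.98 and 0.99 between DMSO and APO or VER in C4-2B MDVR, and 0.95 and 0.96 in CWR22Rv1. Log2 fold changes across 82 members had a rho of 0.56 between the lines for APO and 0.47 for VER. These are descriptions across genes that share library, transcript length and read assignment, and genes are not independent replicates.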

How the data were processed

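C4-2B MDVR and CWR22Rv1 cells received DMSO, APO or VER, with 1 library per condition. Group names follow the titles and treatment labels of the samples. In other labels the C4-2B MDVR libraries have LNCaP-C4-2B as source and parental as cell type. The paper's methods name an Illumina TruSeq preparation, and the labels a stranded kit with poly-A selection. Per the labels, the authors used HISAT, Cufflinks and Cuffnorm on GRCh38 and deposited a table of FPKM for each library. The annotation release is not given in the sources used here.

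Identifiers were matched to GENCODE 29, and 57047 of 60658 had a symbol. Gene coordinates are from GENCODE 29. Fold changes were differences of log2(FPKM + 0.1) for genes above 0.1 FPKM in at least 1 library of the line (for the lines, in either DMSO library). A pseudocount understates changes of low genes. Genes past 1.2-fold were called, without a test. Since FPKM values are not counts and no condition was replicated, no count test was run.

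The members and gene lists were chosen with earlier results of these data known. Named genes were the paralogs with their parents, the 3 highest and 3 lowest fold changes per contrast among members with a mean of at least 10 FPKM, the 3 highest and lowest levels, the members past 1.2-fold in all 4 contrasts, and the position groups and comparison lists. A few examples of those lists (RPL5, RPL11, RPL23, RPS7, EEF1A1, NPM1, FAU, EIF4EBP1, LARP1, GRWD1, HSPA8) were picked after their values were seen. TOP tracts were searched in RefSeq windows of 250 bases before and 50 after each start. Coding identity was computed with Biopython 1.88 from GENCODE 29 transcripts. Alternatives were pseudocounts of 0.01 and 1, other filters and thresholds, scaling to a median ratio of 1, the same sum (TPM), that sum without mitochondrial genes, and leaving out paralogs. Some genes and lists are not reported here. Scripts were tested on simulated data. The work was done in Python 3.11.15 with matplotlib 3.10.9 for figures, scipy 1.17.1 for correlations, and numpy 2.4.6 and pandas 2.3.3.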

Additional observations from a re-analysis of the deposited data

Results flagged for a closer look

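Members that moved in opposite directions in the lines, with a change past 1.2-fold in 1 of them, were RPL26L1 with APO and RPL24, RPL32 and RPL35 with VER. RPL26L1 had a log2 fold change of 0.45 in C4-2B MDVR and −0.11 in CWR22Rv1 with APO. With VER, RPL24 had −0.021 in C4-2B MDVR and 0.36 in CWR22Rv1, RPL32 had −0.12 and 0.36, and RPL35 had −0.050 and 0.41. Each value compares 1 library with 1 library, and the difference between the lines was not tested.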

How the results depend on the processing

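No paired analysis was possible because each condition had 1 library. For the same reason no replicate could be left out. No change past 1.2-fold turned its direction under any alternative, but 33 values of 19 single genes, all under 1.2-fold before and after, changed sign. At 1.5-fold, 20, 2, 44 and 9 members rose and 1, 0, 0 and 1 fell in C4-2B MDVR APO, C4-2B MDVR VER, CWR22Rv1 APO and CWR22Rv1 VER, against 25.2%, 23.7%, 23.8% and 19.1% of all genes up and 23.1%, 22.4%, 27.5% and 17.5% down. At 2-fold 1, 1, 5 and 1 rose and 0 fell, against 15.4%, 14.4%, 13.8% and 10.8% up. For VER against APO, 1.5-fold left 1 higher and 3 lower in C4-2B MDVR and 1 higher and 7 lower in CWR22Rv1. At 2-fold 0 were left in each direction. At 1.5-fold 17.7% and 20.6% of all genes were lower. Between the lines, 25 members were higher at 1.5-fold (29.2% of all genes), and 4 were higher and 1 lower at 2-fold (19.4% and 27.2%). Without paralogs, 0 members fell with either inhibitor and 0 were higher by 1.2-fold with VER than with APO. The CWR22Rv1 VER median then passed 1.2-fold, at 0.27. With a median ratio of 1 that median was 0.30, and the CWR22Rv1 median of VER against APO was −0.24, under 1.2-fold. Scaled to the same sum, VER against APO had a median of −0.17 with 20 members lower in C4-2B MDVR, and 69 lower in CWR22Rv1. With mitochondrial genes left out of the sum, the medians of VER against APO were −0.14, with 18 of 83 lower (23.8% of all genes), in C4-2B MDVR and −0.20, with 3 higher and 35 lower (31.0% of all genes), in CWR22Rv1, 2 members fell with APO in CWR22Rv1, and the median between the lines was 0.25, with 9 members lower. Without a filter, 2 members fell with APO and 2 were higher by 1.2-fold with VER than with APO in CWR22Rv1. These shifts follow from the thresholds, genes and sums used. Of the values of single named genes under the alternatives, 1279 kept their direction and side of the threshold, 34 no longer passed it and 16 newly did. Beyond its ratio between libraries, depth is known only as the approximate read number in the paper. No counting error was therefore given, and a value of 0 is reported only as listed.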
